A study of Mus musculus with 80 samples.

Results

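The genes described here are those of the antioxidant enzyme families in skeletal muscle: the superoxide dismutases and catalase, the glutathione peroxidases, the peroxiredoxins with sulfiredoxin, the thioredoxins with their reductase and related thioredoxin-domain proteins, the glutathione S-transferases, and the genes of glutathione synthesis and recycling with a quinone reductase.
They were chosen by gene symbol alone, and 40 of the 10842 genes in the deposited table belong to them.
Expression was measured with the NanoString GeoMx platform, in which barcoded probes bound to a tissue section are released by light from an outlined region and counted.
The 12 animals were 6 mice that expressed P301L tau, a mutant of the neuronal microtubule protein found in familial frontotemporal dementia, and 6 control mice, and each animal gave 5 to 9 regions of the tibialis anterior, a fast muscle of the lower leg.
All animals were C57Bl/6 mice, and the labels give the genotype of both groups as WT and the treatment as tauopathy or control. Tau animals T14 and T15 and control animals C20, C30 and C40 are labelled male, and the others female, so labelled sex is not balanced between the groups. The labelled sex went against Y-linked genes in earlier results of these data, so it was used only as an alternative covariate.
The deposit's name carries P301L-AAV8, the name of a viral vector, and what the controls received is not given by the labels, so any effect of a vector and of tau cannot be told apart.
Nor do they give the animals' age, the promoter that drives tau or the way regions were chosen.
The 80 regions, on 8 µm sections, were labelled normal fibres (9 tau and 11 control), fibres with central nuclei (11 tau and 11 control), nerve bundle (9 tau and 9 control) and surrounding artery (10 tau and 10 control).
No central nuclei region came from T30, a tau animal.

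These enzymes remove reactive oxygen species, which contracting muscle makes in its mitochondria and at its membranes.
Superoxide dismutases turn superoxide into hydrogen peroxide, and catalase, glutathione peroxidases and peroxiredoxins reduce the peroxide to water.
Glutathione and thioredoxin supply the electrons for the glutathione peroxidases and peroxiredoxins, but not for catalase. Both are recharged with NADPH by glutathione reductase and thioredoxin reductase, while glutathione S-transferases attach glutathione to reactive compounds.
Many genes of these families are known targets of the transcription factor NRF2, which binds the antioxidant response element in their promoters.

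Each region's values are upper-quartile normalised probe counts, called signal here, in which the third quartile over all genes was set to the same level in each region.
The 3 slides, each with 2 tau and 2 control animals, differed in depth, with a median total count of 552840 on slide 1, 2248740 on slide 2 and 1292900 on slide 3.
The median negative probe value, read from probes designed to bind nothing, was 25.1, 46.2 and 34.1 on those slides.
Depth and background also differed by treatment: tau animals exceeded control animals by 0.95 in log2 total count (exact permutation p = 0.00926, two-sided, the smallest that the 216 ways to assign animals within slides allow) and by 0.23 in log2 negative probe value (exact permutation p = 0.0463).
Of 9 muscle fibre markers, 3 sat at the background in nerve bundle regions and in normal fibres of tau and control animals. The summed signal of the 9 ran from 35707 to 191155 in nerve bundle regions of tau animals, against 22710.5 to 169739 in their normal fibres. In control animals it ran from 37249 to 176202 in nerve bundle regions, against 50041 to 217617 in normal fibres. Of the 9 markers 5 had values above 0 in nerve bundle minus normal fibres, with a median of 0.0040 and 1 at an unadjusted limma p under 0.05. Among them, Acta1 and Myh4 differed between these region types by 0.004 ± 0.206 and -0.15 ± 0.196 (log2, SE), neither past the threshold.
Acta2, smooth muscle actin, stood 1.14 ± 0.160 higher around arteries than in normal fibres (limma adjusted p = 0.00119); a gene is said to be called where this adjusted p was under 0.05.
In such tissue regions, fewer cells of a type and less RNA per cell cannot be told apart.

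Promoter sequences were taken from RefSeq (GRCm38.p6), where 33 of the 40 genes matched, and searched over the 250 bases before the start of transcription for TGACNNNGC, the core of the antioxidant response element, on both strands.
Some genes have several listed starts, and a gene was counted when any of its windows held a match. Counted so, the motif was found for 8 of the 33 genes (24.2%): Gclm, Gstm5, Gstm7, Prdx1, Sod1, Txndc11, Txndc5 and Txnrd1.
Over all 27025 genes with a promoter in the RefSeq set, most of them not in the deposited table, the share was 11.5%. By window, 8 of 44 matched for the antioxidant genes, against 3338 of 32851 over the RefSeq set. Gstm7, Txndc11, Txndc5 and Txnrd1 also have windows without a match. The matching windows of Gstm7, Txndc5 and Txnrd1 lie inside the gene's own listed span, and those of Gclm and Txndc11 overlap it in part.
A match is a run of letters and not a shown binding site.
The 250 upstream bases are printed for Sod1, Gstp1, Cat and Sod2, whose windows lie outside the gene's own listed span, 5′ to 3′ on the gene's own strand, with a match in capitals. The Gpx3 window holds no match and is not printed, and Prdx6 was not among the genes with a promoter.

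Sod1, Gstp1 and Cat had lower values in tau animals at an unadjusted p under 0.05, and Sod2 and Cat were called around arteries.
Sod1 (chr16:90220512-90220761, plus strand): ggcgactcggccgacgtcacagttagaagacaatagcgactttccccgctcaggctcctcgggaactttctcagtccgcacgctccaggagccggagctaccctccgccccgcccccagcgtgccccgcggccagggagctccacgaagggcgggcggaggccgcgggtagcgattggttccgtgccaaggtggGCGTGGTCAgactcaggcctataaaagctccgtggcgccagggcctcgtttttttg
Gstp1 (chr19:4037913-4038162, minus strand): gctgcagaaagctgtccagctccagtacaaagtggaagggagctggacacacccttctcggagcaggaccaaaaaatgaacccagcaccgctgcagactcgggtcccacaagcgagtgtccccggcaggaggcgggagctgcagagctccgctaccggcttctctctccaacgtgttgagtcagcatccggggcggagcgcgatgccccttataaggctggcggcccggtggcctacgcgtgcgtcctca
Cat (chr2:103485154-103485403, minus strand): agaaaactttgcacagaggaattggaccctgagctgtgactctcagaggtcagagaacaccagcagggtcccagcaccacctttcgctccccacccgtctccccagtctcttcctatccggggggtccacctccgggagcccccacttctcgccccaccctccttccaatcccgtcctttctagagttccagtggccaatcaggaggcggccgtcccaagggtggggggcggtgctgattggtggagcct
Sod2 (chr17:13007589-13007838, plus strand): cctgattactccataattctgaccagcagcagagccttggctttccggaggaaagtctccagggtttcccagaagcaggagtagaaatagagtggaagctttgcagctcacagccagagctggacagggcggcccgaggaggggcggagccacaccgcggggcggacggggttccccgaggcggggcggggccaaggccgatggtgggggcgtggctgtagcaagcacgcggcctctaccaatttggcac
Of these 4, only Sod1 holds the motif, and it lies on the opposite strand, from 56 to 48 bases before the start of transcription. The Cat, Gstp1 and Sod2 windows hold no match.

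Many of these genes stood only a little above the assay's background.
The median signal of a gene over the 80 regions was at least 3 times the negative probe value for 15 of the 40 genes, from 1.5 to 3 times for 12 and under 1.5 times for 13.
The median over all genes tested was 1.61 times, and 26 of the 40 lay above it.
Probes differ in how well they bind, so this order is one of probe signals and not of transcript number.
A gene was tested when its signal reached 1.5 times the negative probe value in at least 10% of regions, which 39 of the 40 genes and 10188 of all genes did. Gstt1, a theta-class transferase, reached it in 6 regions and was not tested.
Gclc, Gss, Gpx7, Gpx8, Txnrd2 and Txnrd3 are not among the gene symbols of the deposited table and could not be analysed.

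**Figure D1:**
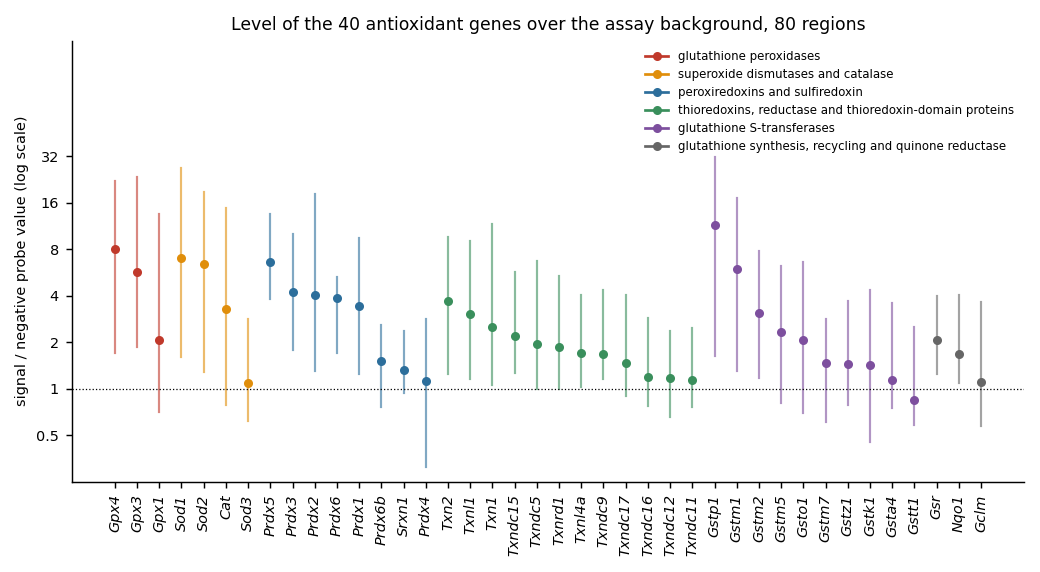
Median ratio of signal to the negative probe value (points, log scale) with the lowest and highest of 80 regions (lines) for each of the 40 genes, grouped by family. Gstp1, Gpx4, Sod1, Prdx5 and Sod2 lie highest, and the medians of Sod3, Gclm and Prdx4 sit close to 1, the background.

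Values in the next paragraphs are medians over animals (6 a group, 5 tau animals for central nuclei) of the signal in normal fibres, central nuclei, nerve bundle and surrounding artery, in that order.
Of the superoxide dismutases, Sod1 encodes the cytosolic copper-zinc enzyme, and its probe had a median ratio to background of 7.06.
Sod1 had medians of 235, 226, 219 and 244 in tau animals, against 297, 318, 332 and 299 in control animals.
Sod2 encodes the manganese enzyme of the mitochondrial matrix and had medians of 223, 175, 225 and 263 in tau animals, against 193, 207, 300.2 and 225 in control animals.
Sod3, the secreted enzyme, had medians of 39.1, 41.5, 38.9 and 45.7 in tau animals, against 38.8, 37.6, 48.0 and 37.4 in control animals, at 1.09 times the background.
Catalase, which breaks down hydrogen peroxide in peroxisomes, had medians of 109.7, 80.7, 107 and 122 in tau animals, against 115, 149, 149 and 151 in control animals for its gene Cat.
The SD between animals of 1 group was 0.188 to 0.912 on the log2 scale for these 4 genes; each group spans the 3 slides.

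Among the glutathione peroxidases, Gpx4, whose enzyme reduces lipid peroxides in membranes, had medians of 328, 280.2, 259 and 333 in tau animals, against 272, 302, 291 and 301 in control animals.
Gpx3 encodes the secreted peroxidase of plasma, and its medians were 191, 250.3, 236 and 292 in tau animals, against 139.8, 131, 134 and 131 in control animals.
Gpx1, the widespread cytosolic and mitochondrial peroxidase, had medians of 72.5, 67.0, 66.9 and 83.1 in tau animals, against 59.1, 77.0, 77.7 and 65.6 in control animals.
The peroxiredoxins are abundant peroxide-reducing enzymes.
Prdx5, found in mitochondria, peroxisomes and cytosol, had medians of 236, 219, 234 and 241 in tau animals, against 194, 210.1, 223 and 201 in control animals.
Prdx3 encodes the mitochondrial matrix enzyme, with medians of 167, 139.7, 162 and 149 in tau animals, against 137, 149, 177 and 149.8 in control animals.
Prdx2, a cytosolic enzyme abundant in red blood cells, had medians of 156, 109.8, 125 and 133 in tau animals, against 141, 182, 187 and 184 in control animals.
Prdx6 has a single active cysteine and also acts on phospholipids.
For Prdx6 the medians were 163, 177, 159.6 and 160.0 in tau animals, against 123, 114, 105 and 111 in control animals.
Prdx1, its cytosolic relative with a pair of active cysteines, had medians of 117, 105, 116 and 116 in tau animals, against 116, 129, 117 and 132 in control animals.
The enzyme of the endoplasmic reticulum, Prdx4, had medians of 46.4, 39.2, 40.9 and 43.0 in tau animals, against 38.5, 40.8, 40.8 and 38.1 in control animals, and its probe lay at 1.12 times the background.
Srxn1, sulfiredoxin, which repairs over-oxidised peroxiredoxins, had medians of 54.4, 56.1, 50.04 and 46.3 in tau animals, against 57.0, 49.1, 45.3 and 46.9 in control animals.
Over these 10 genes the SD between animals ran from 0.131 to 1.11 (log2).
Prdx6b is a copy nearly identical to Prdx6, and the Gstm genes resemble one another closely, so a probe for one may also read another; which probes do was not tested.

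Txn1 and Txn2 encode the cytosolic and mitochondrial thioredoxins.
Txn1 had medians of 87.0, 85.9, 86.2 and 92.2 in tau animals, against 87.9, 91.1, 102 and 98.3 in control animals.
Txn2 had medians of 154, 120.4, 121 and 149.6 in tau animals, against 123, 138, 151 and 135 in control animals.
Txnrd1, the cytosolic reductase that recharges thioredoxin, had medians of 63.2, 65.8, 66.6 and 72.3 in tau animals, against 55.9, 79.5, 68.4 and 64.7 in control animals.
Gclm is the modifier subunit of the enzyme that limits glutathione synthesis, with medians of 36.8, 42.0, 34.4 and 41.2 in tau animals, against 37.4, 38.4, 32.1 and 29.7 in control animals.
Gsr, glutathione reductase, had medians of 81.4, 71.7, 70.2 and 76.8 in tau animals, against 74.4, 73.4, 67.4 and 69.7 in control animals.
Nqo1 encodes a quinone reductase, often used to read NRF2 activity, and its medians were 63.5, 62.6, 64.8 and 60.3 in tau animals, against 57.1, 58.8, 66.1 and 60.1 in control animals.
The pi-class transferase gene Gstp1 had the highest signal of all 40 genes, 11.4 times the background, with medians of 396, 374, 348 and 378 in tau animals, against 482, 544, 497 and 485 in control animals.
The mu-class genes are clustered on chromosome 3 in the mouse.
Of these, Gstm1 had medians of 183, 180.4, 173 and 206 in tau animals, against 219, 239, 217 and 254 in control animals.
For Gstm2 they were 108, 86.4, 98.8 and 106 in tau animals, against 87.2, 92.5, 95.4 and 81.5 in control animals.
Gsto1, an omega-class transferase, had medians of 70.5, 70.2, 66.4 and 74.7 in tau animals, against 71.7, 77.7, 69.0 and 79.9 in control animals.
Gstk1 encodes the kappa-class enzyme of mitochondria and peroxisomes, with medians of 53.0, 41.8, 56.2 and 55.8 in tau animals, against 39.1, 51.3, 55.7 and 46.2 in control animals.
The zeta-class gene Gstz1, which also acts in tyrosine breakdown, had medians of 46.1, 49.7, 51.9 and 50.7 in tau animals, against 44.9, 50.6, 50.6 and 45.1 in control animals.
Gsta4 encodes the transferase that clears the lipid product 4-hydroxynonenal, and had medians of 40.6, 40.2, 42.6 and 45.6 in tau animals, against 43.6, 34.6, 45.7 and 42.6 in control animals.
Gstt1 was near or under the background, with medians of 33.9, 36.1, 35.0 and 36.7 in tau animals, against 31.8, 32.2, 31.6 and 28.4 in control animals.
The SD between animals was 0.104 to 0.981 (log2) over the 13 of these genes that were tested.
The other 12 genes, 9 of the thioredoxin group with Gstm5, Gstm7 and Prdx6b, had median ratios to background from 1.14 for Txndc11 to 3.05 for Txnl1.

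Levels differed between slides.
Slide 2 had the deepest libraries and the highest background, and 27 of 39 genes were lower there than on slide 1, with a median log2 difference of -0.33; over all genes tested the median was 0.21 and 38.9% were lower.
The most negative differences were in genes of high signal.
Sod1 differed by -1.69, Gstp1 by -1.68, Cat by -1.44, Gpx4 by -1.39 and Gstm1 by -1.32 (slide 2 minus slide 1).
The 6 of these genes that are among the 500 genes with the highest mean had a median of -1.36, against -1.35 for all 500.
Prdx5, also of high signal, differed by -0.094.
Prdx6 went the other way, 0.77, as did genes of low signal, Prdx4 with 0.72, Prdx6b with 0.70, Sod3 with 0.69, Gstm7 with 0.69, Srxn1 with 0.62 and Txndc12 with 0.60; others, such as Gclm with -0.33 and Gstk1 with -0.33, did not.
On slide 3 the shift from slide 1 was smaller, with a median of 0.031 and 17 of 39 lower. Over all genes tested that median was 0.12, and 33.3% were lower.
These slide values are descriptions, since each slide holds different animals.

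**Figure D2:**
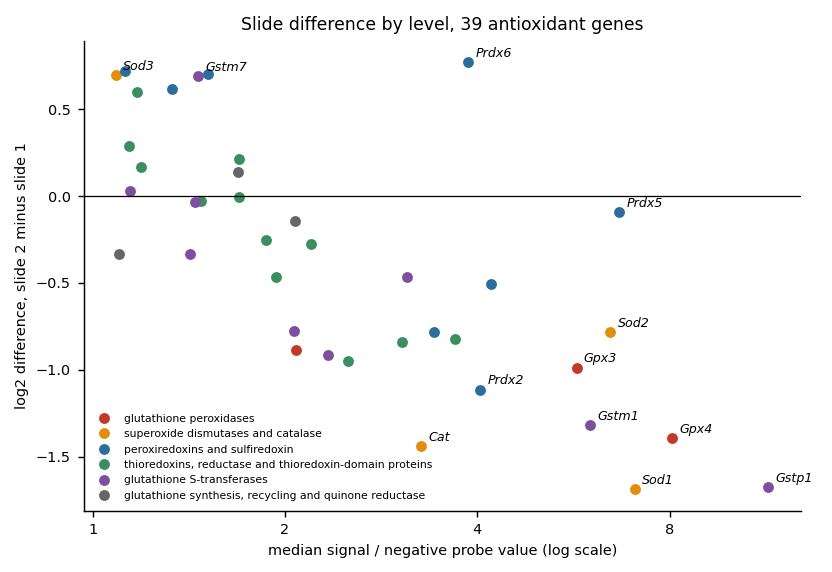
Log2 difference between slide 2 and slide 1 (y axis) against the median ratio of signal to the negative probe value (x axis, log scale) for the 39 genes tested, coloured by family. Sod1, Gstp1 and Cat lie low, and Prdx6 lies highest.

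Tau was compared with control on each animal's mean of the 3 region types that all animals had (all but central nuclei), with slide in the model.
Limma called 0 of 39 antioxidant genes (0 of 10188 genes, 0%).
At an unadjusted p under 0.05 there were 10 of 39, against 19.8% of all genes, 2021 of 10188; edgeR on counts recovered from the table also called 0 genes, with 1696 at an unadjusted p under 0.05.
The 10 were Prdx6, Gstm7, Gpx3, Txndc11, Prdx6b, Prdx5 and Txndc17 with higher values in tau, and Sod1, Gstp1 and Cat with lower values.
Of the 39 genes 24 had values above 0, with a median of 0.034, against 0.088 over all genes tested.
The 6 genes among the 500 with the highest signal had a median of -0.12, against -0.12 for those 500.
Leaving out tau animal T7 gave 3 called genes of the 39 (372 of all genes), leaving out control animal C3 gave 1 (193) and leaving out tau animal T30 gave 1 (167).
Of the markers of other cell types and of muscle fibres given here, 0 were called in the same comparison.
Values were above 0 for 3 of 4 endothelial markers (2 at an unadjusted p under 0.05, median 0.16) and 4 of 9 muscle fibre markers (3, median -0.11).
In normal fibres alone the muscle fibre markers had a median of -0.31, with 4 of 9 at an unadjusted p under 0.05.
For further lists over the 3 region types, values were above 0 for 1 of 4 smooth muscle, 2 of 4 connective tissue, 1 of 2 macrophage, 1 of 3 adipocyte and 1 of 1 red blood cell markers.
The part of cell mixture in the tau differences was not tested.

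Prdx6 (chromosome 1, 161240112 to 161251210, GRCm38.p6) had the smallest p of the family in each tau comparison.
On slide 1 Prdx6 had 138 and 97.3 in tau animals, against 80.4 and 79.9 in control animals, on slide 2 it had 204 and 170.4 in tau animals, against 160.0 and 134 in control animals, and on slide 3 it had 181 and 152 in tau animals, against 124 and 102 in control animals.
Both tau animals lay above both control animals on each slide.
The log2 difference was 0.48 ± 0.105 (SE, n = 6 and 6), a limma adjusted p of 0.0643, and 0.53, 0.35 and 0.56 on slides 1, 2 and 3.
The exact permutation p within slides was 0.00926, the smallest that 216 assignments can give.
The background was higher in tau animals as well: with the negative probe value beside slide in the model the difference was 0.27 ± 0.103 (adjusted p = 0.531), and with that value subtracted from the signal it was 0.59 (adjusted p = 0.202).
Limma did call Prdx6 under a stricter filter on low values, 2 times the background in 50% of regions (adjusted p = 0.0265), which tests fewer genes; the adjusted p ran from 0.0202 to 0.966 over 25 alternatives, 4 of which called it.

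Gstm7, a mu-class transferase gene (chromosome 3, 107926334 to 107931877), had the next smallest p.
On slide 1 Gstm7 had 53.1 and 41.4 in tau animals, against 33.9 and 36.3 in control animals, on slide 2 it had 77.5 and 67.7 in tau animals, against 62.9 and 57.7 in control animals, and on slide 3 it had 58.4 and 50.2 in tau animals, against 46.2 and 49.3 in control animals.
The tau animals lay above the control animals on each slide, and the Gstm7 probe lay at 1.46 times the background.
Its difference was 0.28 ± 0.0862 (adjusted p = 0.11; 0.41, 0.26 and 0.18 by slide), and 0.13 ± 0.0882 with the negative probe value in the model.
Gpx3 (chromosome 11, 54902854 to 54910387) had the largest difference of the 39 genes, with a wide spread.
On slide 1 Gpx3 had 298 and 279 in tau animals, against 286 and 136 in control animals, on slide 2 it had 124 and 129 in tau animals, against 129 and 98.8 in control animals, and on slide 3 it had 340.2 and 208 in tau animals, against 233 and 108 in control animals.
The groups overlapped on all 3 slides, through control animals C2, C3 and C16, which each lay above a tau animal of their slide. These are the control animals labelled female, and the part of sex in the Gpx3 spread was not tested.
Gpx3 differed by 0.48 ± 0.202 (adjusted p = 0.207; 0.55, 0.16 and 0.74 by slide; exact permutation p = 0.139).
Prdx5, the peroxiredoxin shared by several compartments, had 216, 238 and 278 in tau animals (lowest, median and highest), against 182, 209 and 254 in control animals, a difference of 0.19 ± 0.0880 (adjusted p = 0.241).
The thioredoxin-domain genes Txndc11, whose product acts in the endoplasmic reticulum, and Txndc17, a cytosolic thioredoxin-like protein, differed by 0.20 ± 0.0813 and 0.17 ± 0.0738, and Prdx6b by 0.19 ± 0.0819.
Txndc11 lay at 1.14 times the background, Txndc17 at 1.48 times and Prdx6b at 1.51 times. Over the same region types the log2 negative probe value itself was 0.23 higher in tau animals. The part of background in the differences of these 3 genes was not tested further.

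**Figure D3:**
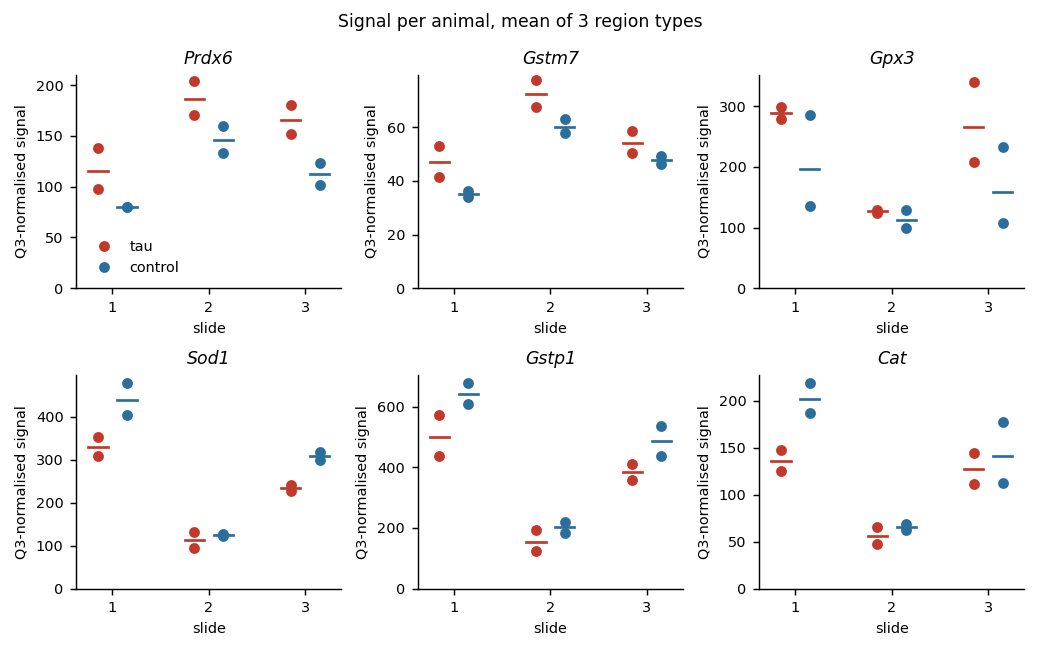
Q3-normalised signal of each animal (points, mean of 3 region types, averaged as log2) on slides 1 to 3, tau left of control, with the mean of each pair (bars), for Prdx6, Gstm7, Gpx3, Sod1, Gstp1 and Cat. Prdx6 and Gstm7 are higher in both tau animals on each slide, and the step between slides is larger than the step between treatments for Sod1, Gstp1 and Cat.

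Lower values in tau were seen for 3 high-signal genes.
On slide 1 Sod1 had 309 and 354 in tau animals, against 479 and 405 in control animals, on slide 2 it had 95.2 and 132 in tau animals, against 126 and 122 in control animals, and on slide 3 it had 226 and 241 in tau animals, against 298 and 318 in control animals.
The Sod1 groups (chromosome 16, 90220762 to 90226333) did not overlap on slides 1 and 3 and overlapped on slide 2.
Sod1 differed by -0.32 ± 0.102 (adjusted p = 0.123; -0.41, -0.14 and -0.40 by slide; exact permutation p = 0.0278).
On slide 1 Gstp1 had 436 and 572 in tau animals, against 609 and 678 in control animals, on slide 2 it had 123 and 194 in tau animals, against 185 and 220.2 in control animals, and on slide 3 it had 358 and 412 in tau animals, against 438 and 538 in control animals.
The pattern of Gstp1 (chromosome 19, 4035411 to 4037912) was alike, with overlap on slide 2 only, and the difference was -0.36 ± 0.123 (adjusted p = 0.148; -0.36, -0.38 and -0.34 by slide).
On slide 1 Cat had 125 and 147 in tau animals, against 219 and 187 in control animals, on slide 2 it had 47.5 and 65.9 in tau animals, against 62.6 and 68.2 in control animals, and on slide 3 it had 144 and 112 in tau animals, against 177 and 112 in control animals.
Cat (chromosome 2, 103453904 to 103485153) was separate on slide 1 only, with a difference of -0.31 ± 0.128 (limma adjusted p = 0.2). By slide it was -0.57, -0.22 and -0.15, and the exact permutation p within slides was 0.0741.
With the negative probe value beside slide in the model the differences were -0.14 ± 0.105 for Sod1, -0.19 ± 0.143 for Gstp1 and -0.15 ± 0.156 for Cat.
These 3 genes also had lower values on the deep, high-background slide 2, and tau animals had the deeper libraries with more background on each slide. Of the genes higher in tau, Prdx6, Prdx6b, Gstm7 and Txndc11 were higher on slide 2 than on slide 1 (0.77, 0.70, 0.69 and 0.29). Gpx3, Prdx5 and Txndc17 were lower there (-0.99, -0.094 and -0.029). The part of depth and background in the tau differences was not tested further.

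Tau animals lay above control animals on all 3 slides for 4 of the 39 genes, Prdx6, Prdx6b, Gstm7 and Txndc17, and 4.88% of all genes did (497).
They lay below on all 3 slides for 0 of 39, against 0.648% of all genes (66).
The remaining 29 genes had an unadjusted p of 0.05 or more.
Their intervals set limits to the difference in signal, background included: for Sod2 the difference was -0.048 with a 95% interval of -0.30 to 0.21, for Gpx4 0.12 (-0.11 to 0.34), and for Nqo1 0.012 (-0.20 to 0.22).
For Txnrd1 it was -0.011 (-0.26 to 0.23), for Gclm 0.11 (-0.085 to 0.30) and for Srxn1 0.097 (-0.086 to 0.28).
Nqo1, Txnrd1, Gclm and Srxn1 are known NRF2 targets. Their median signal was only 1.69, 1.87, 1.10 and 1.33 times the background, in that order. A change in their transcripts is hard to see so near the background, and these intervals do not limit it. Among the 29, values ran from -0.20 for Gstm1 to 0.24 for Prdx4.

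**Figure D4:**
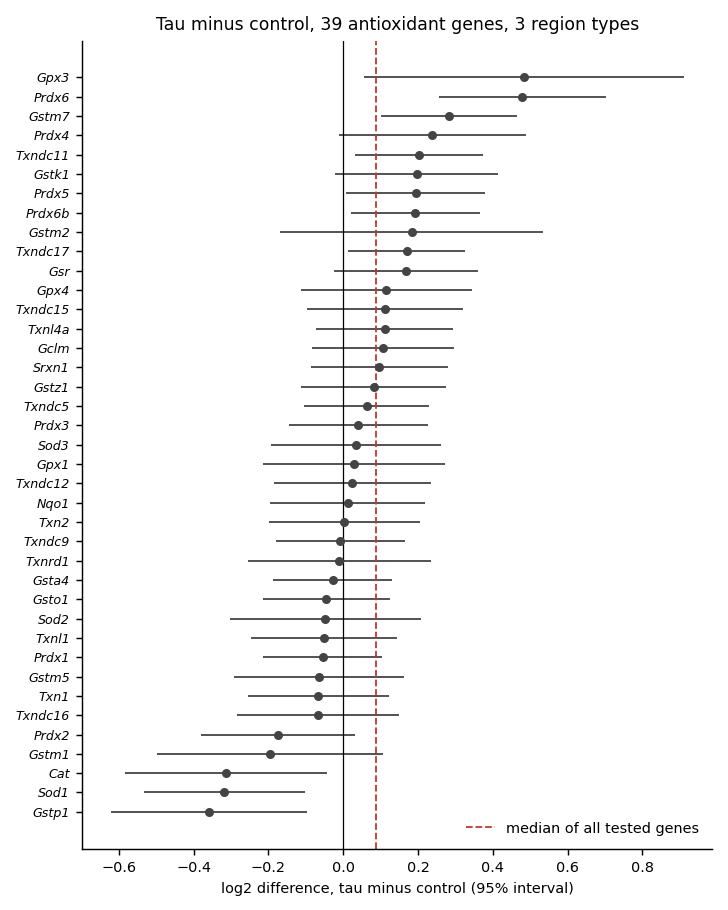
Log2 difference between tau and control (points) with 95% intervals from limma for the 39 genes tested, over the mean of 3 region types with slide in the model; the dashed line is the median of all 10188 genes tested. Gpx3 and Prdx6 lie furthest to the right and Gstp1, Sod1 and Cat furthest to the left, and none passed the adjusted threshold.

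Within single region types limma again called 0 of 39 genes, and 0 of 10188 genes in normal fibres (0%), central nuclei (0%), nerve bundle (0%) and surrounding artery (0%).
At an unadjusted p under 0.05 there were 7 of 39 in normal fibres, against 13.6% of all genes (1385), 10 of 39 in central nuclei against 20.6% (2098), 5 of 39 in nerve bundle against 12.5% (1277) and 7 of 39 around arteries against 12.2% (1243).
edgeR called 0 genes in normal fibres, nerve bundle and surrounding artery (1327, 1066 and 1011 at an unadjusted p under 0.05) and 178 in central nuclei.
Centrally placed nuclei are known from fibres that have regenerated.
Prdx6 had the smallest p in each.
In normal fibres Prdx6 signal was 105, 163 and 194 in tau animals (lowest, median and highest), against 67.7, 123 and 154 in control animals, a difference of 0.50 ± 0.115 (adjusted p = 0.126).
In central nuclei regions it was 126, 177 and 200.3 in tau animals (lowest, median and highest), against 88.3, 114 and 164 in control animals, a difference of 0.46 ± 0.102 (adjusted p = 0.0674).
The ranges over animals overlapped in both region types, while within a slide both tau animals, or the 1 tau animal with central nuclei on slide 1, lay above both control animals.
In nerve bundle it differed by 0.52 ± 0.159 (adjusted p = 0.316) and around arteries by 0.42 ± 0.117 (adjusted p = 0.153), where 1 slide of each showed overlap.

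In normal fibres the next genes by p were Gstm7 (0.40 ± 0.108, adjusted p = 0.171), Gstp1 (-0.52 ± 0.153, 0.182), Gstk1 (0.40 ± 0.122, 0.196) and Sod1 (-0.31 ± 0.107, 0.231).
Gstk1 signal there was 37.8, 53.0 and 75.7 in tau animals (lowest, median and highest), against 28.5, 39.1 and 56.1 in control animals, and the ranges overlapped.
In fibres with central nuclei they were Gstp1 (-0.54 ± 0.129, adjusted p = 0.0674), Cat (-0.54 ± 0.147, 0.0809), Sod1 (-0.37 ± 0.113, 0.102) and Gpx3 (0.56 ± 0.186, 0.125).
Cat signal there was 48.1, 80.7 and 129 in tau animals (lowest, median and highest), against 51.2, 149 and 189 in control animals, and the ranges overlapped.
Calls in this region type were close to the threshold: edgeR on the recovered counts called Prdx6, Gstp1 and Cat (3 of 39, adjusted p = 0.047, 0.0499 and 0.047), and limma called these 3 and Sod1 under the stricter filter; the adjusted p of Prdx6 ran from 0.0248 to 1 over 24 alternatives, 5 of which called it, that of Gstp1 from 0.0171 to 1 over 24 alternatives, 5 of which called it and that of Cat from 0.0298 to 1 over 24 alternatives, 5 of which called it.
Without tau animal T7 limma called 3 of the 39 (373 of all genes), and without control animal C3 it called 2 (107). The stricter filter tested 21 of the 39 and called 448 of 3128 genes.
With the negative probe value in the model the differences were smaller: Prdx6 0.20 ± 0.129, Gstp1 -0.29 ± 0.179, Cat -0.091 ± 0.194 and Sod1 -0.028 ± 0.132, each with an adjusted p of 1.
In nerve bundle regions Prdx2 (-0.44 ± 0.176), Cat (-0.46 ± 0.185), Txndc17 (0.35 ± 0.150) and Txndc11 (0.36 ± 0.161) followed, with limma adjusted p from 0.381 to 0.389.
Around arteries Gpx3 followed, with 129, 292 and 356 in tau animals (lowest, median and highest), against 106, 131 and 317 in control animals and a difference of 0.65 ± 0.2 (adjusted p = 0.2).
Both tau animals lay above both control animals on slides 2 and 3 and not on slide 1, where C2 lay between them.
Prdx6b (0.33 ± 0.116), Gstm7 (0.29 ± 0.110) and Sod1 (-0.25 ± 0.105) came next there, none past the threshold.

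Region types were compared within animals, each against the normal fibres of the same animal.
Around arteries 2 of 39 antioxidant genes were called, both higher: Sod2 and Cat.
Limma called 75 of 10188 genes in that comparison (0.736%), 73 of them higher.
Sod2 (chromosome 17, 13007839 to 13018119) differed by 0.33 ± 0.0673 (adjusted p = 0.0219, n = 12 animals) and was higher in 11 of 12 animals, with differences of -0.11, 0.33 and 0.76 (lowest, median and highest).
Its signal around arteries was 114, 263 and 322 in tau animals (lowest, median and highest), against 131, 225 and 401 in control animals; in normal fibres it was 68.1, 223 and 341 in tau animals (lowest, median and highest), against 112, 193 and 237 in control animals.
By slide the mean difference was 0.32, 0.43 and 0.24 on slides 1, 2 and 3.
Cat differed by 0.34 ± 0.0789 (adjusted p = 0.0406) and was higher in 10 of 12 animals, from -0.47 to 0.78 with a median of 0.40.
Around arteries its signal was 45.9, 122 and 179.7 in tau animals (lowest, median and highest), against 55.3, 151 and 262 in control animals; normal fibres had 41.6, 109.7 and 184 in tau animals (lowest, median and highest), against 49.3, 115 and 153 in control animals.
The mean Cat difference was 0.57, 0.28 and 0.18 by slide.
The animals' ranges overlapped between the region types for both genes.
Both calls depended on the processing: they were lost in the unpaired fit, with quantile normalisation, with the background subtracted (0.52 for Sod2 and 0.84 for Cat, adjusted p = 0.239 for both), with the difference in background as a covariate (0.27 and 0.23), without the shallowest regions, and without animal C2, C16, C40, T7, T13 or T14; 1 call was left without C20, C30 or T30, and 3 were made without C3. edgeR kept Sod2 (adjusted p = 0.0284) and not Cat (0.102). The adjusted p of Sod2 ran from 0.00445 to 0.866 over 23 alternatives, 11 of which called it, and that of Cat from 0.0037 to 0.813 over 23 alternatives, 7 of which called it.

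The regions around arteries also differed from normal fibres in other ways.
Their log2 negative probe value was lower by 0.067 on average (two-sided exact sign-flip permutation p = 0.0376, higher in 3 of 12 animals).
Smooth muscle markers had 4 of 4 values above 0 with 1 called (Acta2 1.14 ± 0.160, Myh11 0.43 ± 0.110 not called), and connective tissue markers 3 of 4 with 1 called (Dcn 0.46 ± 0.0925).
The summed signal of the 4 smooth muscle markers ran from 252 to 519 around arteries and 182 to 246 in normal fibres of tau animals, and in control animals from 232 to 681 around arteries and 144 to 301 in normal fibres.
Of the muscle fibre markers 5 of 9 had values above 0 (median 0.0058), and 1 was called, Myh1, the fast myosin of type IIx fibres (1.06 ± 0.145). Of the adipocyte markers 2 of 3 had values above 0, and 1 was called, Fabp4 (0.31 ± 0.0746), which capillaries also express. The red blood cell marker Hba-a1, a globin, differed by 0.63 ± 0.292 (adjusted p = 0.295).
The part of cell mixture and of fibre type in the Sod2 and Cat differences was not tested.
The next antioxidant genes were Gpx3 (0.22 ± 0.0636, adjusted p = 0.0953) and Prdx2 (0.20 ± 0.0681, 0.158), which did not pass.
In all, 28 of 39 genes had values above 0, with a median of 0.067 against 0.0063 over all genes and 0.11 over the 500 genes with the highest signal.

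**Figure D5:**
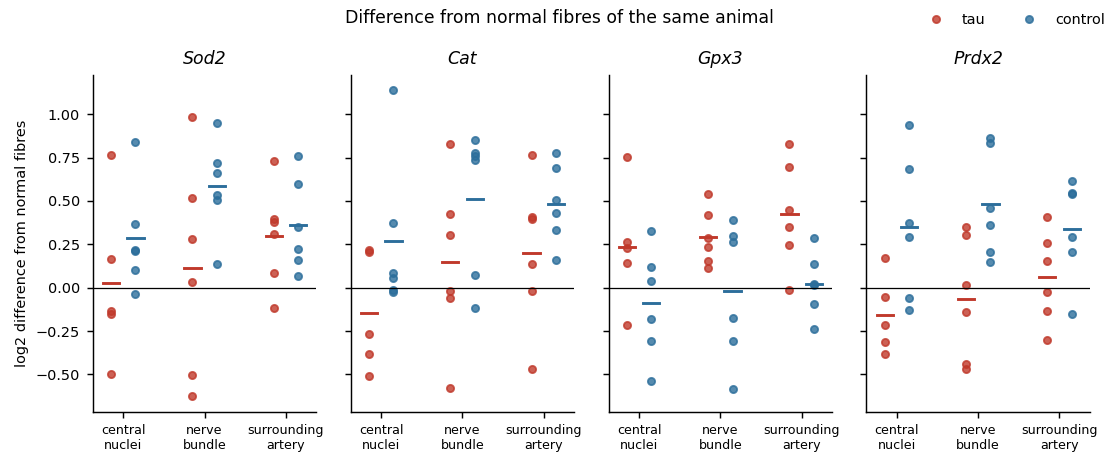
Log2 difference of each animal (points) between central nuclei, nerve bundle or surrounding artery regions and its own normal fibres for Sod2, Cat, Gpx3 and Prdx2, tau left of control, with the mean of each group (bars). Sod2 and Cat lie mostly above 0 around arteries, and the tau means lie above the control means for Gpx3 and below them for Prdx2 in each region type.

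Nerve bundle regions gave 0 of 39 calls against normal fibres (2 of 10188 genes, 0.0196%), and 6 of 39 with an unadjusted p under 0.05 (653 of all genes); edgeR also called 0 of the 39.
Sod2 (0.35 ± 0.114), Cat (0.33 ± 0.111), Prdx3 (0.17 ± 0.0635), Gsr (-0.16 ± 0.0668) and Prdx2 (0.21 ± 0.0885) had the smallest p, and each had a limma adjusted p of 0.753.
Sod2 was higher in 10 of 12 animals, and Cat in 8 of 12. In the same comparison smooth muscle markers had 4 of 4 values above 0 (median 0.27, 3 at an unadjusted p under 0.05, 0 called). Connective tissue markers had 3 of 4 above 0 (median 0.19), with 1 called. The part of cell mixture in the nerve bundle differences was not tested.
Between nerve bundle and surrounding artery limma called 0 of 39 and 0 of 10188 genes (0%; 371 at an unadjusted p under 0.05, and 0 calls by edgeR).
The 5 smallest p belonged to Txnl4a (-0.20 ± 0.0862), a splicing factor with a thioredoxin fold, Gstm5 (0.18 ± 0.0845), Txn1 (-0.12 ± 0.0611), Prdx6b (0.14 ± 0.0809) and Gstk1 (0.16 ± 0.0897).
Fibres with central nuclei gave 0 of 39 and 0 of 10188 calls against normal fibres (0%; 240 at an unadjusted p under 0.05, of which 0 were antioxidant genes, and 0 calls by edgeR).
The smallest p there were those of Srxn1 (-0.14 ± 0.0723), Txnrd1 (0.18 ± 0.0991), Sod2 (0.16 ± 0.0940), Gpx1 (0.15 ± 0.0958) and Txndc5 (-0.095 ± 0.0769), a disulfide isomerase of the endoplasmic reticulum.

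Whether tau changed these regional differences was tested as an interaction, and limma called 0 of 39 genes for central nuclei, nerve bundle and surrounding artery (0 of 10188 genes in each, 0%; 294, 584 and 585 at an unadjusted p under 0.05, and 3, 1 and 2 of the 39). edgeR called 0 in each.
For Gpx3 the difference between artery regions and normal fibres averaged 0.42 ± 0.306 in tau animals and 0.022 ± 0.181 in control animals (SD, n = 6 each), an interaction of 0.40 ± 0.133 (SE, adjusted p = 0.844).
Gpx3 was higher around the artery in 5 of 6 tau animals and in 4 of 6 control animals.
Prdx2 had the opposite sign: its nerve bundle difference averaged -0.063 ± 0.354 in tau animals and 0.48 ± 0.308 in control animals, an interaction of -0.54 ± 0.180 (adjusted p = 0.777).
All 6 control animals and 3 of 6 tau animals had higher Prdx2 in nerve bundle than in normal fibres.
In central nuclei the interaction was -0.50 ± 0.187 for Prdx2, -0.44 ± 0.154 for Gstk1, -0.44 ± 0.208 for Cat, -0.27 ± 0.154 for Txndc9 and -0.31 ± 0.178 for Sod2.
In nerve bundle the others among the 5 smallest p were Sod2 (-0.47 ± 0.229), Gstk1 (-0.44 ± 0.228), Gpx3 (0.31 ± 0.161) and Txndc16 (0.33 ± 0.175).
Around arteries they were Gstp1 (0.27 ± 0.129), Prdx2 (-0.28 ± 0.138), Gstm1 (0.21 ± 0.103) and Gstm5 (0.25 ± 0.129).

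Other genes of the same chemistry gave no more calls.
Of 48 tested genes for NRF2 control and its other targets, NADPH supply, other redox proteins and oxidant sources, 0 were called between tau and control over the 3 region types. At an unadjusted p under 0.05 there were 5 of the 48, against 19.8% of all genes tested.
Values were above 0 for 8 of 15 NRF2 genes (median 0.019), 5 of 6 NADPH genes (0.078), 13 of 21 other redox genes (0.054) and 3 of 6 oxidant sources (0.020).
The smallest p among higher values were those of Ccs, the chaperone that loads copper into SOD1 (0.28 ± 0.0930, limma adjusted p = 0.139), and Glrx5, a mitochondrial glutaredoxin (0.26 ± 0.0945, 0.164).
Ccs and its client gene Sod1 had values of opposite sign, and neither passed.
Among lower values they were Park7, the redox-sensing protein DJ-1 (-0.34 ± 0.117, 0.151), and Me1, malic enzyme (-0.29 ± 0.129, 0.237).
Around arteries 0 of the 48 genes were called against normal fibres, and 34 of 48 had values above 0. Their median was 0.045, against 0.0063 over all genes tested and 0.11 over the 500 genes with the highest signal.
Idh2, the mitochondrial isocitrate dehydrogenase that makes NADPH, had 0.50 ± 0.139 (adjusted p = 0.0874) and Ucp3, a mitochondrial carrier of muscle, 0.19 ± 0.0662 (0.172).
Maoa, a monoamine oxidase that releases hydrogen peroxide, had -0.20 ± 0.0745 (0.199) and Sesn2, a stress-induced sestrin, -0.23 ± 0.0877 (0.212).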

How the data were processed

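Gene expression was measured in 80 GeoMx regions of 12 mice. Per the file headers, the deposited signal values are probe counts that the authors scaled so that the third quartile is the same in every region, on a linear scale. The genome build is mm10 per the submitters' processing notes (mm version 10), and no aligner or counter is named in the sources used here. Each region's values were whole multiples of 1 step (tolerance 0.02, at least 99.982% of values), which gave back the counts and the depth.

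Signals were tested as log2(value + 1), with the background left in, after a filter of 1.5 times the negative probe value in at least 10% of regions. The background left in, and to a small degree the pseudocount, understates the change of low genes. Regions were averaged per animal and region type, so animals are the replicates, and the p-values measure the spread between animals. Limma 3.58.1 in R 4.3.3 was fitted across all 10188 genes, with slide as covariate for tau against control; region types were compared as differences within animals, with the animal as the pair because the labels tie regions to animals. P-values were adjusted by Benjamini-Hochberg over all genes, with a threshold of 0.05. Single values were tested by exact permutation. Tests on simulated data were run first. edgeR 4.0.16 (quasi-likelihood) on the recovered counts was chosen after seeing the data. The text names every gene past the threshold or, with none, the 5 with the smallest p. The members and the lists were chosen with earlier results of these data known. A marker list of 1 further cell type is not reported here.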

Additional observations from a re-analysis of the deposited data

How the results depend on the processing

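Over single genes, 1491 results under an alternative kept their direction and side of the threshold, 28 lost a call, 25 gained one and 2 reversed; counts of called genes that moved are given next, and the cause of the changes was not tested. The reversals were Gpx3 between tau and control in central nuclei, at -0.086 with slide and the negative probe value in the model, and the tau effect on the nerve bundle difference of Gstk1, at 0.11 without regions of 30 counts or fewer at the third quartile. For tau in central nuclei, where 0 antioxidant genes were called, the stricter filter gave 4 (448 of all genes), quantile normalisation 2 (237), subtraction of the negative probe value 1 (175), 1 region per animal and region type 2 (97) and edgeR 3 (178), and leaving out single animals gave 0 to 3. Over the 3 region types, again from 0, the stricter filter gave 1 (270 of all genes), and leaving out animals 0 to 3 (193 of all genes without C3, 167 without T30 and 372 without T7). With labelled sex beside slide, 51 of all genes were called in normal fibres, and the stricter filter called 92 around arteries.

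Around arteries, the 2 calls against normal fibres became 0 with quantile normalisation (31 of all genes, against 75), 0 with the background subtracted (1), 0 without the shallow regions (1), 0 with 1 region per animal and region type (1), 0 with no replicate block, the unpaired fit (1), 0 with the background difference as covariate (0), and 1 with edgeR (66). Leaving out animals gave 0 to 3, and the stricter filter called 133 of all genes. The regions compared come from the same animals, and the unpaired fit changed no other count of antioxidant calls. For 13 genes the median signal was under 1.5 times the background, so small differences in them are hard to see.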
